A study of Mus musculus with 8 samples.

Results

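The genes described here encode the basement membrane of muscle and the integrins that bind its laminins. The set holds 32 genes out of 35494 symbols in the deposited table of gene counts. They were chosen by gene symbol for their known function, with earlier results of these data known. They comprise 6 collagen IV chains, 10 laminin chains, 4 nidogens and heparan sulfate proteoglycans, 8 associated or cross-linking proteins and 4 integrin subunits. Quadriceps muscle was taken at day 28 from wild-type male C57BL/6 mice that were 8 weeks old at the start, per the labels. The scMC38 group was 4 mice injected subcutaneously with 1000000 cells of MC38, a line from a mouse colon adenocarcinoma, and the Control group was 4 mice given an equal volume of PBS under the skin. Each mouse gave 1 bulk mRNA library. All 8 mice had the same wild-type genotype per the labels. A bulk library cannot tell fewer cells of a type from less RNA per cell, and this holds for every value below.

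Every muscle fibre, capillary and nerve branch in skeletal muscle is wrapped in a basement membrane, a thin sheet built from a laminin network and a collagen IV network. A laminin is a trimer of 1 alpha, 1 beta and 1 gamma chain, and the alpha chain carries the sites that cells bind. Nidogens and perlecan link both networks, agrin bridges laminin to the receptor dystroglycan, and integrin alpha 7 beta 1 anchors the fibre to laminin. The fibre sheet is rich in laminin alpha 2, whose loss causes a congenital muscular dystrophy, whereas laminin alpha 4 and alpha 5 are typical of vessels.

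The 8 libraries held 50465092 to 62105453 counts. The muscle fibre markers Ckm, Acta1, Myh4, Tnnt3, Ryr1 and Atp2a1 together reached 101246 to 150596 CPM (counts per 1000000 library counts, library sizes scaled by TMM) in every library. Libraries scMC38 1 and 3 stood apart, with summed bone markers of 70.1 and 419 CPM against 1.12 to 3.11 CPM in the other 6, and summed neutrophil and marrow markers of 463 and 4179 CPM against 0.510 to 28.5 CPM. Control 1 and control 2 held 24.3% and 29.7% mitochondrially encoded counts against 14.4% to 18.9% elsewhere. Over all 14112 genes tested with edgeR, 104 (0.737%) were called higher and 66 (0.468%) lower in scMC38 at an adjusted p under 0.05.

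No member of this set passed the edgeR test, although most had a lower mean in the muscle of tumour-bearing mice. Of the 31 members with enough counts, edgeR called 0 higher and 0 lower, and the smallest adjusted p was 0.0565, for Lamb1. The log2 fold change was negative in 28 of 31, with a median of -0.30, where 7034 of all 14112 tested genes (49.8%) were negative with a median of 0.00087. At an unadjusted p under 0.05, 11 members were lower and 0 higher, against 9.77% lower and 11.2% higher over all genes. In 8 members, all 4 scMC38 libraries lay below all 4 controls, which was the case for 6.45% of all genes. These 8 were Col4a5, Lamb1, Lamc3, Nid1, Nid2, Hspg2, Fras1 and Frem1, and in 0 members did scMC38 lie wholly above (6.82% of all genes). The remaining member, Lama1, was too low to test.

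DESeq2 called 7 members lower and 0 higher, where it called 3.83% of all genes lower and 6.04% higher: Nid1 (adjusted p = 0.00028), Lamb1 (0.00043), Nid2 (0.00098), Fras1 (0.0018), Col4a5 (0.0085), Frem1 (0.0379) and Hspg2 (0.0449). With libraries scaled by their total counts in place of TMM, the median of all genes moved to 0.11 and that of the members to -0.19. Under that scaling 25 of 31 members were negative, and only Fras1 and Frem1 still had all scMC38 libraries below all controls (3.09% of all genes). Without scMC38 1 and 3, edgeR called 0 members, the median was -0.33 and 11 members lay wholly below the controls, including 7 of the 8, with Hspg2 no longer among them (14.8% of all genes). Without control 1 and 2 the median was -0.35, with 0 called and 14 wholly below (13.5% of all genes).

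**Figure D1:**
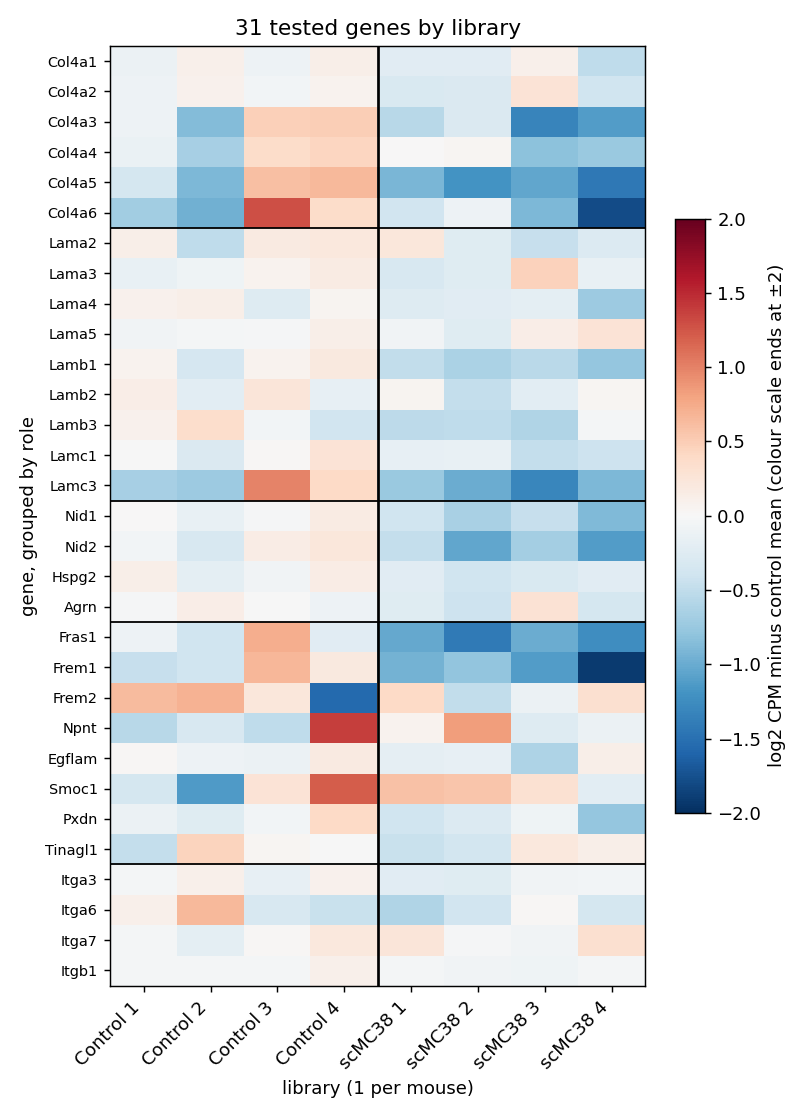
Heat map of log2 CPM minus the control mean for the 31 tested genes (rows, grouped by role with black lines) in each library (columns, 1 per mouse), with blue for lower and red for higher. Nid1, Nid2, Lamb1, Fras1 and Frem1 are blue in all 4 scMC38 libraries, and control 3 and 4 are red for Col4a3, Col4a4, Col4a5, Col4a6 and Lamc3.

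Levels of different genes were compared per length, as CPM per kilobase of the longest coding transcript. In controls the highest member was Itgb1, the beta subunit shared by the laminin-binding integrins, at 52.6 ± 2.70 CPM per kb (SD, n = 4). The collagen chain Col4a1 followed at 27.3 ± 2.45 CPM per kb. Tinagl1 (21.9 ± 5.64), Lamb2 (21.7 ± 3.27) and Col4a2 (21.3 ± 1.39 CPM per kb) differed from each other by less than their spread. Nid1 stood at 17.4 ± 1.58, Itga7 at 14.9 ± 1.75, Lamc1 at 14.6 ± 2.29 and Hspg2 at 12.5 ± 1.40 CPM per kb. Among the alpha chains of laminin, Lama2 (4.61 ± 0.977 CPM per kb) and Lama4 (4.36 ± 0.497) did not differ beyond their spread, and Lama5 was lower at 2.24 ± 0.136. The skin and epithelial chains were low, with Lamb3 at 0.427 ± 0.0888 and Lama3 at 0.225 ± 0.0231 CPM per kb. The other collagen IV chains were far below Col4a1 and Col4a2: Col4a5, Col4a3 and Col4a4 were between 0.392 and 0.648 CPM per kb, and Col4a6 was at 0.0797. The order depends on the length used: per median coding transcript length, Lamb2 (299) and Col4a1 (155) stood above Itgb1 (88.7 CPM per kb), and Lama2 (10.4) above Lama4 (4.36). These values rest on short annotated transcripts, with a median of 409 bases for Lamb2 (longest 5629), 1170 for Col4a1 (longest 6615) and 4244 for Lama2 (longest 9614).

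**Figure D2:**
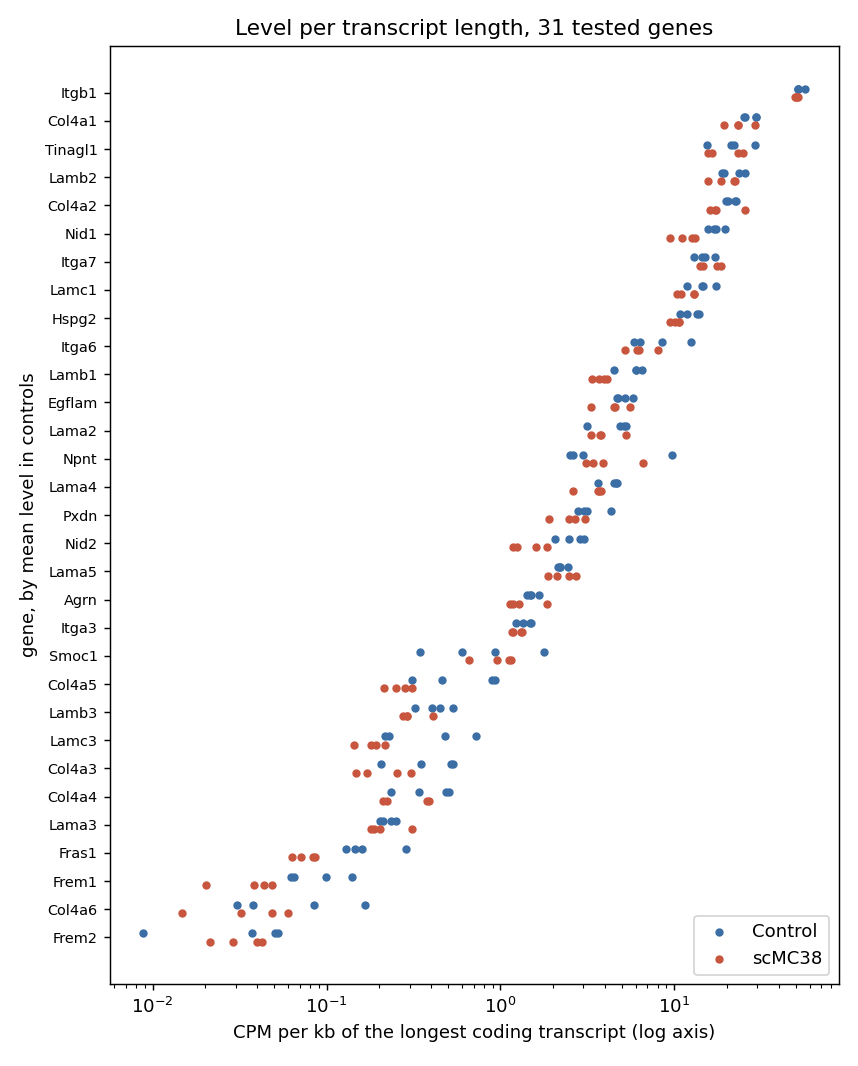
CPM per kilobase of the longest coding transcript (log axis) for the 31 tested genes, ordered by their mean in controls, with 1 point per mouse (blue Control, red scMC38). Levels run from 52.6 CPM per kb for Itgb1 to 0.0371 for Frem2, and most genes keep both groups close together relative to this range.

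Collagen IV trimers are built from 3 chains, and the trimer with Col4a1 and Col4a2 is the common network of nearly all basement membranes. Col4a1 was at 166, 194, 168 and 196 CPM in controls 1 to 4 and at 154, 154, 194 and 127 CPM in scMC38 1 to 4. Col4a2 was at 128, 145, 132 and 144 CPM in controls and at 111, 112, 165 and 104 CPM in scMC38. In both genes 3 scMC38 libraries lay below every control and scMC38 3, the library with most bone marker mRNA, lay among the controls or above them. The log2 fold changes were -0.20 (SE 0.13, edgeR adjusted p = 0.407) and -0.16 (SE 0.15, adjusted p = 0.574), and with 1 library left out they ranged from -0.32 (without scMC38 3) to -0.12 (without scMC38 4) and from -0.33 to -0.086, with the same libraries left out. The part of bone mRNA in the value of scMC38 3 was not tested.

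The minor chains Col4a3, Col4a4, Col4a5 and Col4a6 form specialised networks, best known from kidney and, for Col4a5 with Col4a6, from smooth muscle and the neuromuscular region. Col4a5 was at 3.00, 2.03, 5.86 and 6.05 CPM in controls and at 2.02, 1.65, 1.85 and 1.40 CPM in scMC38. The groups did not overlap, but control 2 and scMC38 1 nearly touched, and control 3 and 4 carried most of the difference. Col4a5 was no longer apart without a count filter, or with at least 1 CPM required in 4 or more libraries. Its log2 fold change was -1.29 (SE 0.35, 95% interval -2.08 to -0.49, adjusted p = 0.101). Col4a3 was at 2.98, 1.75, 4.46 and 4.55 CPM in controls and at 2.18, 2.61, 1.27 and 1.46 CPM in scMC38 (-0.87, SE 0.35, adjusted p = 0.205), and control 2 lay among the scMC38 libraries. Col4a4 stood at -0.39 (SE 0.31, adjusted p = 0.488) and Col4a6, at 0.0985 to 1.1 CPM, at -1.03 (SE 0.62, adjusted p = 0.367), both with overlapping groups. Without control 1 and 2, the log2 fold changes were -1.79 for Col4a5, -1.27 for Col4a3, -0.74 for Col4a4 and -1.69 for Col4a6. Leaving out control 3 alone brought Col4a6 to -0.40, and leaving out control 4 alone brought Col4a4 to -0.24. Collagen IV genes lie in pairs that start close together and run in opposite directions, and in the RefSeq annotation of GRCm38.p6 the starts of Col4a1 and Col4a2 are 21 bases apart and those of Col4a6 and Col4a5 1343 bases apart.

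Laminin chains differed in how far they stood from controls. Lamb1, the laminin beta 1 chain, was at 34.9, 26.1, 34.8 and 37.9 CPM in controls and at 23.6, 21.3, 22.9 and 19.3 CPM in scMC38. All 4 scMC38 values were below the lowest control, control 2. The control mean was 33.4 ± 5.09 and the scMC38 mean 21.8 ± 1.88 CPM (SD, n = 4). This is 34.8% lower, or -0.62 on the log2 scale (SE 0.12, 95% interval -0.89 to -0.34, edgeR adjusted p = 0.0565). Without control 2, Lamb1 was called lower (-0.72, adjusted p = 0.0307), the only call of a member by edgeR in the fits that left out 1 library. Lamb2, the beta 2 chain concentrated at the neuromuscular junction, was at 133, 105, 143 and 109 CPM in controls and at 126, 87.3, 105 and 125 CPM in scMC38, with overlapping groups (-0.15, SE 0.15, adjusted p = 0.599).

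The gamma 1 chain Lamc1, part of most laminins, was at 110, 90.3, 112 and 133 CPM in controls and at 98.2, 98.9, 78.9 and 83.1 CPM in scMC38. Control 2 lay within the scMC38 range, and the log2 fold change was -0.31 (SE 0.13, adjusted p = 0.224). Lamc3, a rarer gamma chain, was at 1.34, 1.27, 4.26 and 2.82 CPM in controls and at 1.27, 1.06, 0.840 and 1.12 CPM in scMC38. Its difference of -1.17 (SE 0.40, adjusted p = 0.154) came with controls 1 and 2 close to scMC38 and control 3 far above, and was -0.76 without control 3. Lama4, the vessel alpha chain, was at 27.9, 28.4, 21.9 and 27.2 CPM in controls and at 22.0, 22.4, 22.9 and 15.8 CPM in scMC38 (-0.34, SE 0.14, adjusted p = 0.201).

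The fibre alpha chain Lama2 was at 46.9, 30.4, 49.4 and 50.5 CPM in controls and at 50.7, 36.6, 31.7 and 36.0 CPM in scMC38, so the groups overlapped (-0.19, SE 0.19, 95% interval -0.63 to 0.24, adjusted p = 0.591). With 1 library left out it ranged from -0.35 (without scMC38 1) to -0.11 (without scMC38 3). Lama5 ranged from 24.2 to 27.8 CPM in controls and from 21.5 to 30.9 CPM in scMC38 (0.04, SE 0.12, 95% interval -0.23 to 0.30). Lama3 (-0.03, adjusted p = 0.958) and Lamb3 (-0.43, adjusted p = 0.307), chains of epithelial laminins, were at most 3.28 CPM in any library. Lama1, the embryonic alpha chain, had 0, 1, 0 and 4 counts in controls and 0, 1, 13 and 0 in scMC38, and no fold is given.

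Both nidogens were without overlap between groups under TMM scaling, but not with library totals. Nid1, nidogen 1, which ties laminin to collagen IV, was at 106, 95.5, 104 and 119 CPM in controls and at 80.2, 67.6, 76.7 and 57.1 CPM in scMC38. The highest scMC38 library was below the lowest control. The control mean was 106 ± 9.64 and the scMC38 mean 70.4 ± 10.3 CPM (SD, n = 4). This is 33.5% lower, or -0.59 on the log2 scale (SE 0.12, 95% interval -0.86 to -0.32, edgeR adjusted p = 0.0610). Nid2, its paralog, was at 12.2, 10.0, 14.0 and 14.7 CPM in controls and at 9.06, 6.09, 7.82 and 5.79 CPM in scMC38, again without overlap (-0.82, SE 0.18, 95% interval -1.22 to -0.42, adjusted p = 0.0700). Without scMC38 1 and 3 the differences were -0.74 for Nid1 (adjusted p = 0.0597) and -1.08 for Nid2 (adjusted p = 0.0578).

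Hspg2 encodes perlecan, the large heparan sulfate proteoglycan of the sheet. It was at 191, 153, 169 and 196 CPM in controls and at 151, 134, 142 and 150 CPM in scMC38. The groups did not overlap, although scMC38 1 and control 2 lay within a few CPM (-0.30, SE 0.10, 95% interval -0.52 to -0.07, adjusted p = 0.148). Agrn encodes agrin, which also clusters acetylcholine receptors at the synapse, and was at 10.7, 12.1, 10.9 and 10.3 CPM in controls and at 9.31, 8.23, 13.4 and 8.61 CPM in scMC38. Here 3 scMC38 libraries were below every control and scMC38 3 was above every one (-0.15, SE 0.16, adjusted p = 0.604), and with 1 library left out the difference ranged from -0.34 (without scMC38 3) to -0.073 (without scMC38 2).

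The bases before the starts of Lamb1, Nid1 and Col4a5, which are 3 of the 5 matched members with no overlap between groups and those that hold both motifs below, are shown with those of Lamb2, the paralog of Lamb1 with overlapping groups. RefSeq windows on GRCm38.p6 matched 21 of the 32 members, in 28 windows. Each line gives the 250 bases before the annotated start, 5′ to 3′ on the gene's strand, all of them on the plus strand. Capitals mark a CCAAT box (CCAAT), a GC box (GGGCGG) or a TATA box (TATAAA), read on both strands. The windows are chr12:31265043-31265292 for Lamb1, chr9:108479612-108479861 for Lamb2, chr13:13437352-13437601 for Nid1 and chrX:141475169-141475418 for Col4a5. The Lamb1 and Nid1 windows also overlap the predicted genes Gm32899 and Gm7426.
Lamb1: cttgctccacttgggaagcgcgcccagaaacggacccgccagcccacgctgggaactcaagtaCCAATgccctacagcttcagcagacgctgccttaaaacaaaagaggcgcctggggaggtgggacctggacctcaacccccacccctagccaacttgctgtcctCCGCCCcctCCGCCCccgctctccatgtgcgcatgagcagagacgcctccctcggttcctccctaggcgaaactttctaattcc
Lamb2: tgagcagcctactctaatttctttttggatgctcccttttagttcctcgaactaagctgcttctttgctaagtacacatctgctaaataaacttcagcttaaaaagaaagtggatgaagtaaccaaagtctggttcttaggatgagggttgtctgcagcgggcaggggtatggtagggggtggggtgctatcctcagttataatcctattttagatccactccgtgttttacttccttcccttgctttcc
Nid1: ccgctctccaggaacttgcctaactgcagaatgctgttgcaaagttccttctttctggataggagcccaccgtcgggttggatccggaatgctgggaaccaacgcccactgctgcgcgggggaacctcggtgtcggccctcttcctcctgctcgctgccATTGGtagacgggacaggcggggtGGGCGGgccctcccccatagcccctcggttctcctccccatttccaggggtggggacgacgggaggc
Col4a5: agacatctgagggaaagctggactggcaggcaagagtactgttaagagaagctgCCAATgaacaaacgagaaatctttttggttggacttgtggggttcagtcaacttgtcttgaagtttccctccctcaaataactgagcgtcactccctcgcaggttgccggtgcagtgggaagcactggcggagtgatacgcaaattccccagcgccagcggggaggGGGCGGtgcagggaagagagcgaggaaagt
The Lamb1 window holds 1 CCAAT box and 2 GC boxes, and the Nid1 and Col4a5 windows hold 1 of each. The Lamb2 window holds neither, and its GC content is 43.6%, against 62% for Lamb1, 64.4% for Nid1 and 54% for Col4a5. Over all 32851 RefSeq windows of this length, 33.8% hold a CCAAT box, 32.7% a GC box, 11% both and 12.4% a TATA box. Over the 28 windows of members, 35.7% hold a CCAAT box, 53.6% a GC box and 21.4% both, and 0 hold a TATA box. Some members have more than 1 window, and those of Egflam overlap, so the windows are not independent. Windows with both were those of Col4a2, Itga3, Pxdn, Lamb1, Nid1 and Col4a5, and of these Lamb1, Nid1 and Col4a5 are among the 8 without overlap. Of the other members without overlap, the Hspg2 window holds 5 GC boxes and 0 CCAAT boxes, both Frem1 windows hold 0 of either, and Lamc3, Nid2 and Fras1 were not matched.

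**Figure D3:**
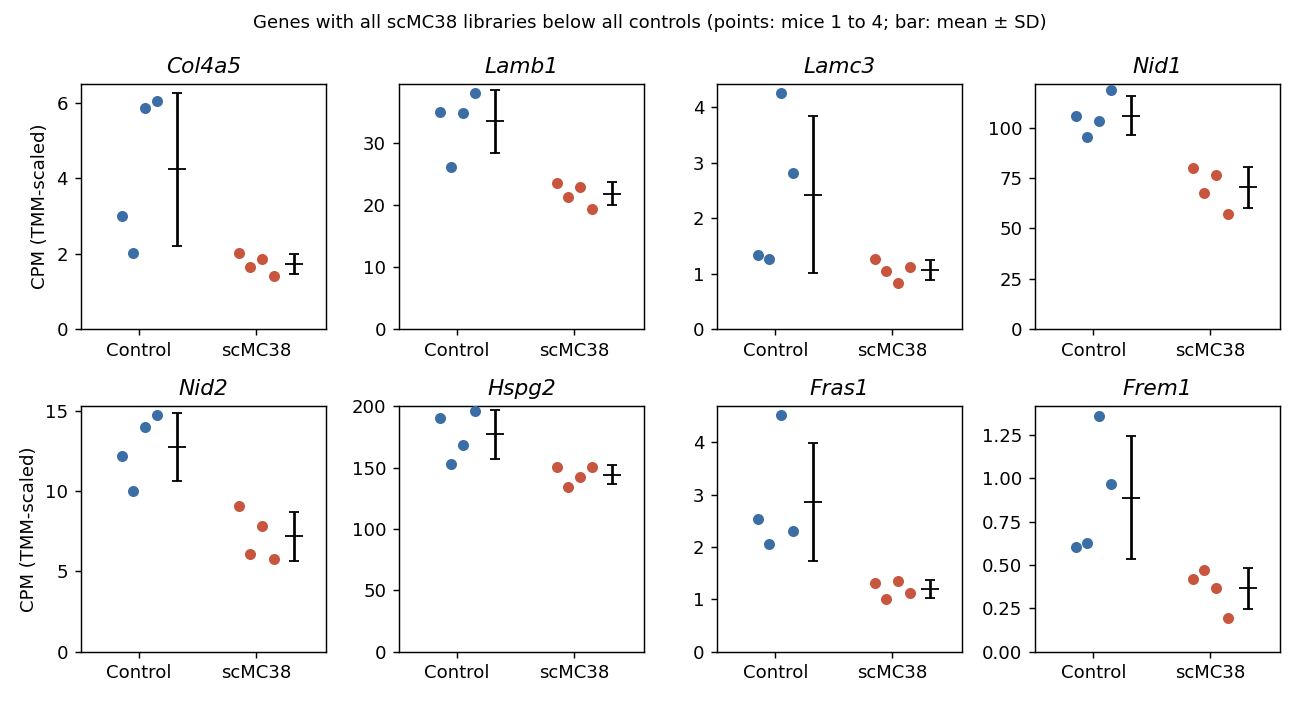
TMM-scaled CPM of the 8 genes in which all scMC38 libraries (red) lie below all controls (blue), with 1 point per mouse and the mean ± SD beside them. The gap is clear for Nid1 (57.1 to 80.2 against 95.5 to 119 CPM) and narrow for Hspg2, Lamc3 and Col4a5.

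Of the associated proteins, Fras1 and Frem1 encode parts of the Fraser complex, which holds epithelial basement membranes to the tissue beneath. Fras1 was at 2.54, 2.05, 4.52 and 2.31 CPM in controls and at 1.32, 1.00, 1.35 and 1.12 CPM in scMC38, without overlap (-1.25, SE 0.28, 95% interval -1.88 to -0.61, adjusted p = 0.0737). Frem1 was at 0.603, 0.627, 1.36 and 0.965 CPM in controls and at 0.422, 0.473, 0.370 and 0.197 CPM in scMC38 (-1.27, SE 0.38, adjusted p = 0.123). In both genes control 3 was the highest library, and the separation held with total-count scaling. Frem2, the partner of both, was at 0.109 to 0.646 CPM over all 8 libraries with overlapping groups (-0.17, SE 0.50, adjusted p = 0.878).

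Npnt encodes nephronectin, a ligand of integrin alpha 8 beta 1. It was at 11.7, 13.7, 12.02 and 44.7 CPM in controls and at 17.9, 30.6, 14.3 and 15.8 CPM in scMC38. Control 4 was above every other library, and the log2 fold change went from -0.06 (SE 0.47, adjusted p = 0.958) to 0.66 without it (adjusted p = 0.197). The lowest scMC38 library, scMC38 3 (14.3 CPM), lay close to control 2 (13.7 CPM). Control 4 also held mRNA of the epidermal keratins Krt5 (9.81 CPM) and Krt14 (6.30 CPM), which were at 0 in the other 7 libraries, and the highest summed adipocyte markers (622 CPM against 213 to 416 CPM). The part of these tissues in the Npnt value was not tested. Smoc1, a calcium-binding matrix protein, also had its highest value in control 4, with 2.09, 1.2, 3.24 and 6.21 CPM in controls against 2.30 to 4.03 CPM in scMC38 (0.09, SE 0.45, adjusted p = 0.928).

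Pxdn encodes peroxidasin, the peroxidase that forms sulfilimine cross-links in collagen IV. It was at 20.0, 18.4, 20.8 and 28.6 CPM in controls and at 16.4, 17.8, 20.3 and 12.6 CPM in scMC38, with scMC38 3 among the controls (-0.39, SE 0.18, adjusted p = 0.252). Egflam encodes pikachurin, a ligand of dystroglycan, and ranged from 22.5 to 27.8 CPM in controls and from 15.8 to 26.4 CPM in scMC38 (-0.20, SE 0.15, adjusted p = 0.467). Tinagl1, a matrix protein related to tubulointerstitial nephritis antigen, ranged from 30.4 to 57.6 and from 31.02 to 48.9 CPM (-0.13, SE 0.22, adjusted p = 0.762).

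Of the 4 integrin subunits, 0 were called and 0 reached an unadjusted p under 0.05 in either direction (9.77% lower and 11.2% higher over all genes). Their log2 fold changes ran from -0.37 to 0.12. Itgb1 was at 196, 195, 196 and 216 CPM in controls and at 195, 192, 188 and 196 CPM in scMC38, the narrowest interval of the 31 members (-0.06, SE 0.07, 95% interval -0.23 to 0.11, adjusted p = 0.671). Itga7, the main laminin receptor subunit of muscle fibres, was at 57.7, 52.0, 60.5 and 68.9 CPM in controls and at 70.3, 58.4, 56.4 and 74.1 CPM in scMC38 (0.12, SE 0.12, 95% interval -0.16 to 0.39, adjusted p = 0.605). Itga3, a subunit typical of epithelia, spanned 6.00 to 7.23 CPM in controls and 5.68 to 6.48 CPM in scMC38 (-0.15, SE 0.11, adjusted p = 0.441). Itga6, found on vessels, nerve and satellite cells, was at 36.8, 53.7, 27.4 and 25.1 CPM in controls and at 22.6, 26.1, 34.7 and 26.8 CPM in scMC38. Controls 1 and 2 were high, and the log2 fold change of -0.37 (SE 0.24, adjusted p = 0.401) became 0.06 without them and -0.11 without control 2 alone. Summed endothelial markers were likewise highest in controls 1 and 2 (414 and 558 CPM) and scMC38 3 (496 CPM), against 291 to 391 CPM in the other libraries, and their part in the Itga6 values was not tested.

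**Figure D4:**
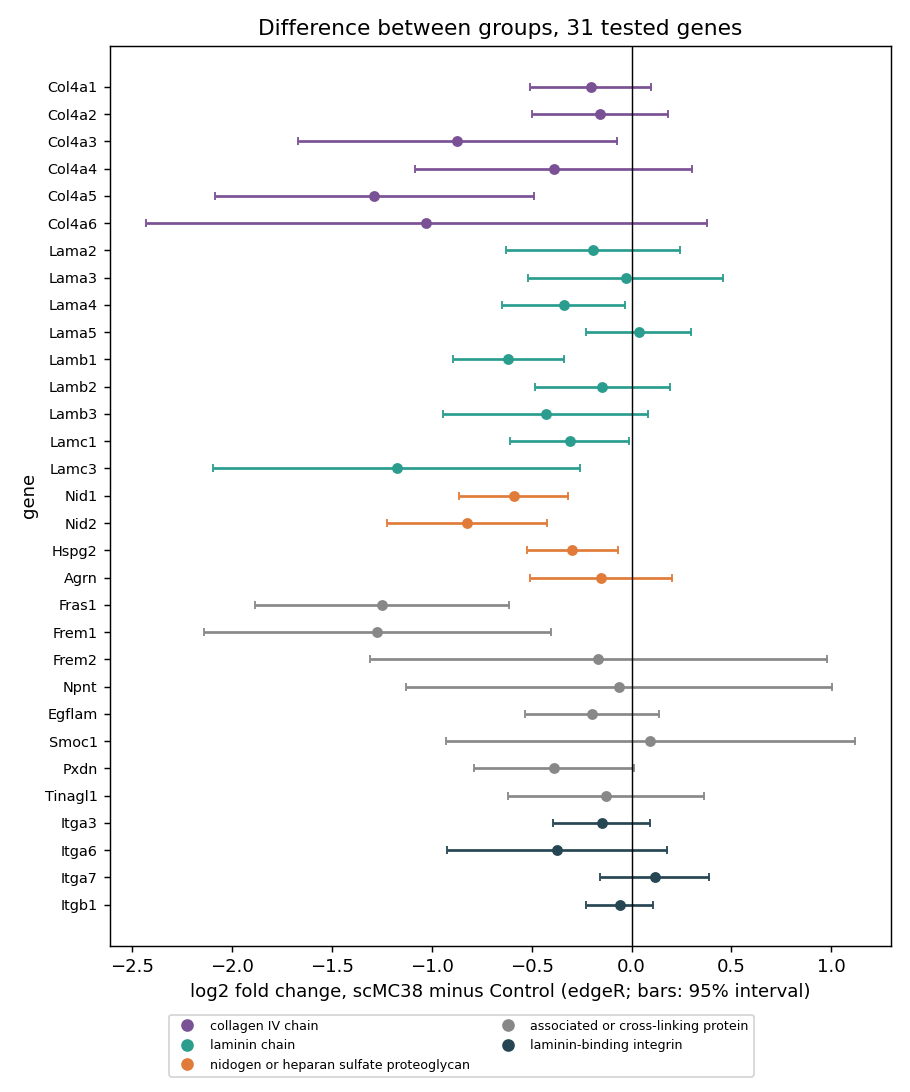
Log2 fold change of scMC38 minus Control for the 31 tested genes, coloured by role, with edgeR's 95% interval for each gene, not adjusted for the number of genes. Points lie left of 0 for 28 genes. The intervals of 11 genes lie wholly below 0 (Col4a3, Col4a5, Lama4, Lamb1, Lamc1, Lamc3, Nid1, Nid2, Hspg2, Fras1 and Frem1), while those of all 4 integrin subunits include 0.

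Count ratios between members of the set within a library do not depend on how libraries are scaled. Of the 10 ratios compared by a two-sided exact permutation test over the 70 assignments of 8 libraries, the Col4a4 to Col4a3 ratio did not overlap between groups. It was 1.16, 1.36, 1.099 and 1.13 counts of Col4a4 per count of Col4a3 in controls and 1.76, 1.49, 1.69 and 1.54 in scMC38, a log2 difference of 0.45 (exact p = 0.0286, the smallest the design allows, adjusted p = 0.190 over the 10 ratios). Lamb1 relative to Lamb2 was 0.262, 0.248, 0.244 and 0.349 in controls and 0.188, 0.244, 0.219 and 0.155 in scMC38, a log2 difference of -0.46 (exact p = 0.0571, adjusted p = 0.190), with scMC38 2 level with control 3. Nid1 relative to Nid2 was 7.41 to 9.53 in controls and 8.86 to 11.1 in scMC38 (0.24, exact p = 0.0571, adjusted p = 0.190). Col4a5 relative to Col4a1 differed by -0.95 with control 2 inside the scMC38 range (exact p = 0.114, adjusted p = 0.286). Col4a1 to Col4a2 stayed between 1.17 and 1.39 in all 8 libraries (exact p = 0.600). Lama2 to Lama4 (0.16, exact p = 0.600), Lama2 to Lama5 (-0.21, exact p = 0.429), Hspg2 to Agrn (-0.11, exact p = 0.600), Itga7 to Itga6 (0.44, exact p = 0.229) and Itga7 to Itgb1 (0.17, exact p = 0.200) overlapped between groups.

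**Figure D5:**
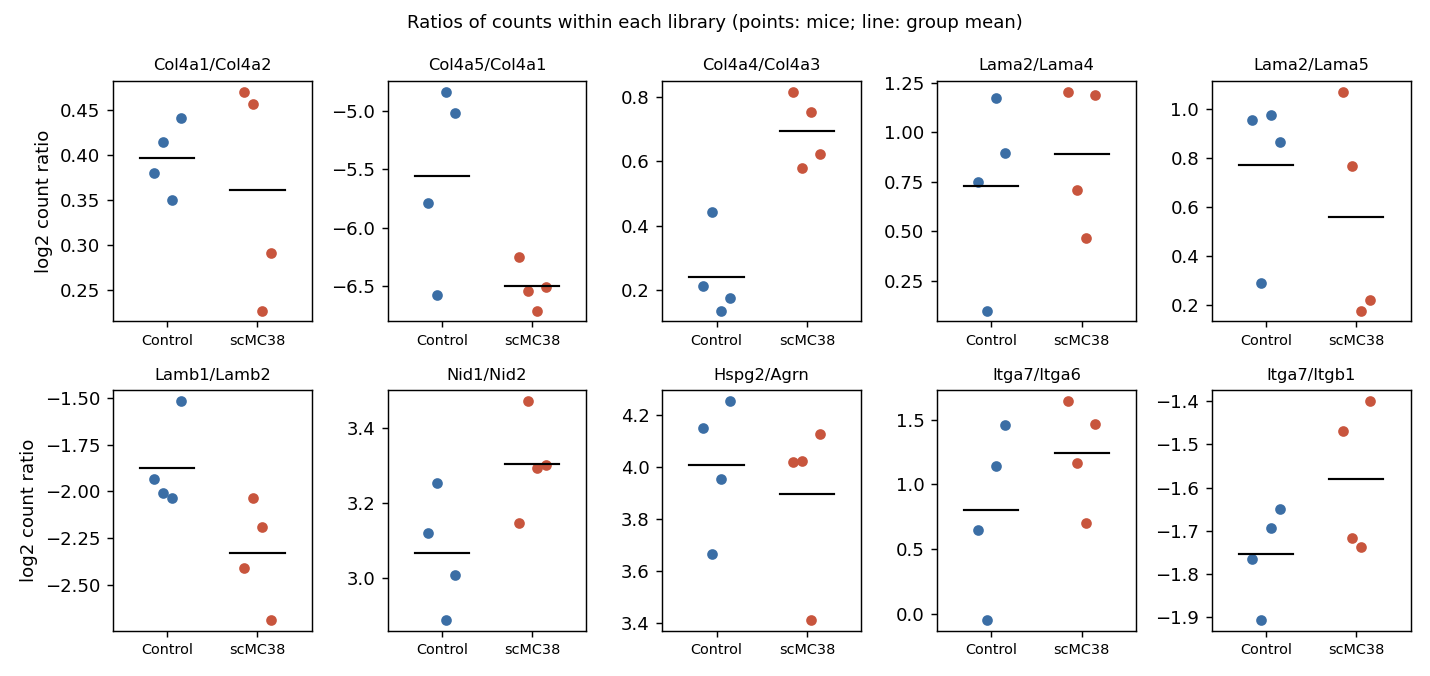
Log2 ratio of the counts of 2 genes in each library for the 10 pairs, with 1 point per mouse (blue Control, red scMC38) and a line at the group mean, on a separate axis for each pair. Col4a4/Col4a3 is the pair whose groups do not overlap.

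Other genes of the same biology were read from lists of related components. Of 22 further basement membrane components and receptors, 3 were called lower and 0 higher, with a median of -0.16. Smoc2, the paralog of Smoc1, was at 155, 147, 175 and 167 CPM in controls and at 114, 87.6, 113 and 81.1 CPM in scMC38, and fell by 0.70 on the log2 scale (SE 0.13, edgeR adjusted p = 0.0479). Matn2, matrilin 2, fell by 1.1 (SE 0.18, adjusted p = 0.0341), from 5.52 ± 0.483 to 2.58 ± 0.585 CPM (SD, n = 4). Papln, papilin, fell by 2.08 (SE 0.32, adjusted p = 0.0310), from 2.52 ± 0.628 to 0.595 ± 0.238 CPM (SD, n = 4). With 1 library left out, Smoc2 kept its call only without scMC38 3, and Matn2 and Papln only without scMC38 1 or scMC38 3, with adjusted p up to 0.129, 0.109 and 0.101. Without scMC38 3 the list's median was -0.33, and without scMC38 1 and 3 together it was -0.50.

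Inside the fibre, integrins and dystroglycan are tied to the cytoskeleton. Of 12 integrin adhesion genes, Itgb1bp2, which encodes melusin, a muscle protein that binds the integrin beta 1 tail, was called lower and 0 were called higher (median -0.09). Itgb1bp2 was at 122, 143, 135 and 105 CPM in controls and at 74.5, 77.0, 61.4 and 82.8 CPM in scMC38, and fell by 0.77 on the log2 scale (SE 0.13, adjusted p = 0.0338). It kept the call only without control 4 when 1 library was left out (adjusted p up to 0.107). Of 20 genes of the dystroglycan complex and its glycosylation, 0 were called in either direction by edgeR, with a median of -0.15. At an unadjusted p under 0.05, 6 were lower and 0 higher, against 9.77% lower and 11.2% higher over all genes. Utrn, which encodes utrophin, a relative of dystrophin, had the smallest p (-0.25, adjusted p = 0.132).

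Of 16 genes of collagen maturation, 15 were tested and 0 called. At an unadjusted p under 0.05, 3 were higher and 2 lower, against 11.2% higher and 9.77% lower over all genes. The median was 0.11. Colgalt1, a collagen galactosyltransferase (0.27, adjusted p = 0.0824), and Plod1, a lysyl hydroxylase (-0.27, adjusted p = 0.0964), had the smallest p. With scMC38 3 left out this median was -0.14, and with scMC38 1 left out as well it was -0.17. Of 10 genes of basement membrane degradation, Adamts4, an aggrecan-cleaving protease, was called higher and 0 lower (median 0.12). The list also includes inhibitors of metalloproteinases (TIMPs), so its median does not give a direction of degradation. Adamts4 was at 0.665 ± 0.141 CPM in controls and at 1.93 ± 0.535 CPM in scMC38 (SD, n = 4). It rose by 1.53 on the log2 scale (SE 0.28, adjusted p = 0.0449), and kept the call only without scMC38 4 when 1 library was left out (adjusted p up to 0.157). That list's median was -0.14 with scMC38 3 left out and -0.45 with scMC38 1 left out as well.

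Markers of the cells that make or border basement membrane were read in the same libraries. Over all genes, 9.77% were lower and 11.2% higher at an unadjusted p under 0.05. All 7 Schwann cell markers had negative log2 fold changes (median -0.64, 0 called), and their summed level was 66.4 to 134 CPM in controls and 46.8 to 61.8 CPM in scMC38, without overlap. Fibroblast markers were negative in 8 of 10 (median -0.33), with Col3a1 called lower (-1.96, adjusted p = 0.0352), and summed to 2058 to 3102 CPM in controls, 1502 and 1670 CPM in scMC38 4 and 2, and 2788 and 5351 CPM in scMC38 1 and 3. Pericyte and smooth muscle markers were negative in 8 of 10 (median -0.41, 0 called). Myh11 (40.6 and 24.1 CPM) and Notch3 (27.3 and 18.1 CPM) had all scMC38 libraries below all controls, as had 6.45% of all genes. The sums of this list, 3442 to 3958 CPM in controls and 3658 to 4402 CPM in scMC38, were mostly Des (means of 2840 and 3232 CPM), which muscle fibres also express. Endothelial markers were negative in 6 of 10 (median -0.12, 0 called, 2 lower and 1 higher at an unadjusted p under 0.05). Of the 10, only Kdr (49.6 and 22.7 CPM) had all scMC38 libraries below all controls, as had 6.45% of all genes. Cldn5 (8.11 and 12.5 CPM) was the marker higher at an unadjusted p under 0.05. Tendon markers were negative in 5 of 6 (median -0.65, 0 called) and summed to 180 to 509 CPM in controls and 68.7 to 336 CPM in scMC38, highest in control 3. Satellite cell markers were negative in 4 of 5 (median -0.54, 0 called, 2 lower and 1 higher at an unadjusted p under 0.05). Their sum, 35.8 to 42.3 CPM in controls and 37.9 to 47.3 CPM in scMC38, was mostly Cdh15, the marker with the higher mean in scMC38 (22.6 and 30.0 CPM). All 7 red cell markers were called higher (501 to 1087 against 1643 to 2872 CPM), and macrophage markers were positive in 7 of 7 (median 0.95, 0 called, 4 higher at an unadjusted p under 0.05), with sums of 64.3 to 86.6 CPM in controls and 58.2 to 192 CPM in scMC38. The part of these cells in the values of the basement membrane genes was not tested.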

How the data were processed

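Bulk mRNA libraries of quadriceps from 4 Control and 4 scMC38 mice were read from the single gene table that the authors deposited. The deposited values are estimated counts of each gene, partly fractional, and were made by the authors with tools that include Salmon 1.10.3, fastp 1.0.1, R 4.4.3, MultiQC 1.30 and FastQC 0.12.1 on the GRCm39 build, per the submitters' processing notes, which give no roles. The annotation release and any use of strand are not stated in those notes, so antisense overlap cannot be resolved. Groups and replicate numbers came from sample titles, and columns were matched by library names.

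Of 35667 rows, 144 without a symbol (at most 0.00403% of a library) were left out, 26 repeated symbols were summed and values were rounded. edgeR 4.0.16 in R 4.3.3 was run with filterByExpr (minimum count 10, total 15), TMM scaling and a quasi-likelihood F test (robust fit) for scMC38 against Control, without covariates. The Benjamini-Hochberg adjustment ran over all 14112 genes tested, and calls are those under 0.05. SEs are those implied by F. The common biological coefficient of variation was 27.3%. Libraries held 50465092 to 62105453 counts. All 12 within-group pairs of libraries differed beyond counting noise (chi-square per degree of freedom 63.2 to 480). The fit was tested on simulated data.

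Transcript lengths came from GENCODE M21 and promoter windows from RefSeq, both on GRCm38, an earlier build, so neither was joined to the counts by position. Alternatives were library totals, RLE factors, DESeq2 1.42.0, other count filters, left-out libraries and a replicate block. All 32 members are named. Of each related list the called genes are named or, with none called, up to 2 of smallest p, and 1 such gene is not reported here. Krt5, Krt14, Cdh15, Myh11, Notch3, Kdr, Cldn5 and Des were chosen after their values were seen, as were the promoters shown. Members and lists were chosen with earlier results of these data known.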

Additional observations from a re-analysis of the deposited data

Results flagged for a closer look

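Among the 62 sets of 4 libraries examined (31 tested genes in 2 groups), 5 had 1 library far from the other 3, where chance gives about 1 in 20. Npnt was at 44.7 CPM in control 4, against 11.7 to 13.7 CPM in the other controls. Itgb1 was at 216 CPM in control 4, against 195 to 196 CPM. Col4a2 was at 165 CPM in scMC38 3, against 104 to 112 CPM in the other scMC38 libraries. Lama4 was at 15.8 CPM in scMC38 4, against 22.0 to 22.9 CPM. Lamb3 was at 1.99 CPM in scMC38 4, against 1.34 to 1.42 CPM.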

How the results depend on the processing

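Of the 16 alternatives, edgeR called a member in 1, the fit without control 2, and DESeq2 called 7 members lower. With 1 library left out, 0 to 1 members were called lower and the median of the members ranged from -0.35 to -0.23. In these fits 8 to 12 members lay wholly below the controls, where 7.65% to 10.4% of all genes did. The 8 named above were among them each time, but groups that are apart stay apart when a library is left out, unless the scaling moves. With total counts, 2 members lay wholly below the controls (3.09% of all genes), and without control 1 and 2 together 14 did (13.5% of all genes). Without a count filter 7 did (6.14% of all genes), with Col4a5 no longer among them. With at least 1 CPM required in 4 or more libraries 6 did (6.66% of all genes). There Col4a5 overlapped and Frem1 was not tested.

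Over all genes, calls higher and lower numbered 216 and 51 with total counts, a share of 80.9% higher where TMM gave 61.2%, 921 and 584 with DESeq2, 69 and 45 without a count filter, 25 and 39 without scMC38 1 and 3, and 0 and 0 without control 1 and 2 (1605 genes at an unadjusted p under 0.05). They ranged from 1 to 59 and from 1 to 52 with 1 library left out.

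Same-numbered libraries were not paired in the labels, and their deviations from the group means correlated at -0.11, -0.28, -0.0058 and -0.24. With the replicate number as a block, 0 genes were called higher and 1 lower, with 0 members called and Npnt at 0.16. The Col4a4 to Col4a3 ratio had an exact sign-flip p of 0.125, the smallest that test allows with 4 pairs, so it could not fall under 0.05.

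Some directions reversed. With total counts Lama3 was at 0.091, Npnt at 0.013 and Itgb1 at 0.044. Without scMC38 1 and 3, Npnt was at 0.20, Smoc1 at -0.011 and the Hspg2 to Agrn ratio at 0.069. Without control 1 and 2, Lama5 was at -0.027, Frem2 at 0.51, Smoc1 at -0.49, Itga6 at 0.059, Itga7 at -0.0087, the Lama2 to Lama4 ratio at -0.14 and the Itga7 to Itga6 ratio at -0.058. With 1 library left out, Frem2 ranged from -0.49 to 0.041, Smoc1 from -0.18 to 0.64, Tinagl1 from -0.27 to 0.037, Lama3 from -0.24 to 0.059, Npnt from -0.36 to 0.66 and Lama5 from -0.056 to 0.12, and the log2 ratios of Col4a1 to Col4a2 from -0.071 to 0.0098, of Lama2 to Lama4 from -0.049 to 0.31 and of Hspg2 to Agrn from -0.22 to 0.050. The cause was not tested. Lama1, with at most 13 counts in a library, could not be tested at this depth.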
